A study of Mus musculus with 61 samples.

Results

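The genes described here encode the proteins of the mitochondrial ribosome, named Mrpl for the large subunit and Mrps for the small subunit. A gene was included if its symbol had that form, was not a pseudogene symbol ending in -ps, and had at least 10 counts in at least 30 of the 61 muscle libraries. That gave 77 of the 55011 rows of the count table, 48 Mrpl and 29 Mrps. The threshold hardly bore on the choice, because each of the 77 genes reached 10 counts in all 61 libraries. The least abundant was Mrpl23, with 6288 counts over the 61 libraries, and the lowest value of any gene in any library was 11 counts, for Mrpl27. Mrpl53 was the only candidate left out by the threshold, with 60 counts in all and at most 6 in a library. In the GENCODE vM21 annotation, 695 of its 790 exon bases are also exon of Gm42688 on the same strand, which held 226 counts.

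Mitochondria keep their own ribosome, which translates the few membrane proteins of the respiratory chain and ATP synthase that mitochondrial DNA encodes. Its ribosomal RNAs come from mitochondrial DNA, but every one of its proteins is encoded in the nucleus, translated in the cytosol and imported. Skeletal muscle, and oxidative fibres in particular, is rich in mitochondria, and endurance exercise is known for raising mitochondrial content. The names do not map strictly onto the structure. Mrps18a and Mrps30 sit in the large subunit, and Mrps36 is a component of the 2-oxoglutarate dehydrogenase complex.

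All samples were whole mouse muscle. Wild-type C57BL/6J mice gave quadriceps and tibialis anterior muscles from sedentary animals and 1, 2 or 7 days after a bout of acute exercise, with 3 libraries for each muscle and time. The Foxp3DTR experiments used quadriceps of Foxp3-IRES-GFP.hDTR mice (Foxp3DTR+, here DTR+), in which Foxp3-expressing regulatory T cells carry the human diphtheria toxin receptor, and Foxp3DTR- mice (DTR-) without it. Both genotypes received diphtheria toxin, so the toxin alone does not distinguish them. In the acute experiment there were 3 DTR- and 2 DTR+ sedentary libraries, 3 and 3 at 1 day after exercise, and 2 and 2 at 7 days. In the training experiment each genotype had 3 sedentary libraries and 3 after 2 weeks of exercise training. A further set of DTR+ mice, trained for 2 weeks and given toxin, received anti-IFN-gamma or IgG every other day for 1 week (3 libraries each). The last set was sedentary C57BL/6JN mice of 24 months given anti-IFN-gamma or IgG (2 libraries each), whose muscle the labels do not name. No age is stated for the other mice. Where the labels do not state that libraries came from separate animals, p-values measure only the spread between these libraries.

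The libraries held 3359683 to 14445336 counts, so that 3 counts, the limit allowed by a count of 0, corresponded to 0.208 to 0.893 CPM (counts scaled to a common library total). All 6 skeletal muscle markers were detected in every group. Foxp3 itself had 0 to 9 counts per library, too few for the loss of regulatory T cells to be checked from it. The acute DTR+ libraries of sedentary mice and of day 7 stood apart from the rest in their share of mitochondrially encoded counts. Mitochondrially encoded genes took 20.01% to 23.48% of their counts, against 7.895% to 12% in the DTR- libraries of the same times, and 14701 to 15306 genes were detected, against 16508 to 18494. In wild-type libraries the share was 4.127% to 6.254%, lower than in those DTR- libraries too. The number of genes detected did not set the DTR+ libraries apart, as it fell to 14890 outside the acute experiment. Within the acute experiment it reached 26600, in a day 1 library. The part of these differences in the results that follow was not tested, and in the bulk RNA a loss of cells of one type and less RNA per cell cannot be told apart.

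Promoter sequences are shown for 6 of the genes whose levels differed most between genotypes in sedentary mice, 4 that were higher and 2 that were lower in DTR+ muscle. Mrps33 and Mrps18c, which have a window and rose more than Mrpl32 and Mrpl27, are not shown. Each is the RefSeq window of 300 bases from 250 before to 50 after the annotated start (GRCm38.p6), written 5′ to 3′ on the gene's own strand. Capitals mark matches on either strand to GCGCANGCG (the NRF1 motif), CCGGAAG (the core of ETS factors such as GABPA), AANATGGCG (YY1) or TCAAGGTCA (ERRA), factors linked to nuclear genes of mitochondria. Mrpl42 lies on chromosome 10 (chr10:95501900-95502199, minus strand), Mrpl33 on chromosome 5 (chr5:31613701-31614000, plus strand), Mrpl32 on chromosome 13 (chr13:14612988-14613287, minus strand) and Mrpl27 on chromosome 11 (chr11:94653541-94653840, plus strand). Mrps5 lies on chromosome 2 (chr2:127587176-127587475, plus strand) and Mrps27 on chromosome 13 (chr13:99344536-99344835, plus strand).
Mrpl42: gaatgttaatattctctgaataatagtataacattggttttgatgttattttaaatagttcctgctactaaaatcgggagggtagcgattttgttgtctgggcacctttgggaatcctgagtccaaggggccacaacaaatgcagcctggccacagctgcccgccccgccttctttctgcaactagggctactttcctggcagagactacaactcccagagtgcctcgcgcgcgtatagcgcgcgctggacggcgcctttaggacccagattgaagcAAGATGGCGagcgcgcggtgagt
Mrpl33: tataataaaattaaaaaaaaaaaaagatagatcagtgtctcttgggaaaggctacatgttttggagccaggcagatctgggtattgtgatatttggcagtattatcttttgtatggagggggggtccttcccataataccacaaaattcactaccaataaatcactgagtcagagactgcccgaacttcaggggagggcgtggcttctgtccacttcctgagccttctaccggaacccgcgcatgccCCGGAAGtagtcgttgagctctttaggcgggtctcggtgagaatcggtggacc
Mrpl32: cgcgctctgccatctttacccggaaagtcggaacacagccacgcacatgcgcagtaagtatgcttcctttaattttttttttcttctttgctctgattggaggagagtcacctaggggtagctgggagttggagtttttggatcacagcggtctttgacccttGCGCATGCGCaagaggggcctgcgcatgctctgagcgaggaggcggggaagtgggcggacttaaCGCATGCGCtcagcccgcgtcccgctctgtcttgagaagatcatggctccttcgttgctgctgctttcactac
Mrpl27: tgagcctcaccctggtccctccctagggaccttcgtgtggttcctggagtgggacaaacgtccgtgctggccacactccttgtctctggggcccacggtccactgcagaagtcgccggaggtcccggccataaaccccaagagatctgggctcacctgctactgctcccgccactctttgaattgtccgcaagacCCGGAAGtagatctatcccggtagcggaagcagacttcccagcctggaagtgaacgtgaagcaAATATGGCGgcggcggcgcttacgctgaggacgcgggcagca
Mrps5: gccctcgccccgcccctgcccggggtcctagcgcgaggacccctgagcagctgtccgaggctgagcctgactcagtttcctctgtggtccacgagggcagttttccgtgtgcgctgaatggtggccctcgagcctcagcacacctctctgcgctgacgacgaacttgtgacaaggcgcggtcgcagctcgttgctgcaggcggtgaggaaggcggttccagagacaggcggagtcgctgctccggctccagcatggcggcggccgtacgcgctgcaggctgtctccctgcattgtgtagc
Mrps27: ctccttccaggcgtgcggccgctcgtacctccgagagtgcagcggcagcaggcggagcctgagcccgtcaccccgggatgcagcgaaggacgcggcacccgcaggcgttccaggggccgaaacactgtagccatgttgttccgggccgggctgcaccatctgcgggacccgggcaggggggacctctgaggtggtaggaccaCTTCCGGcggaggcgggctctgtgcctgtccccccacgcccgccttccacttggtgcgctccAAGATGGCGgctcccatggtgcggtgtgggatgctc

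Mrpl42 holds the YY1 motif, Mrpl33 the ETS core, Mrpl32 the NRF1 motif more than once, and Mrpl27 and Mrps27 both the ETS core and the YY1 motif. The window of Mrps5 holds none of the 4. Over the 68 members with a window, the ETS core was found in 25 (36.8%), the NRF1 motif in 16 (23.5%), the YY1 motif in 11 (16.2%) and the ERRA motif in 0. Among the 27025 windows of all genes the shares were 9.93%, 7.03%, 2.76% and 0.466%. Among the 10565 windows of genes tested in the acute experiment they were 19.2%, 14.6%, 5.66% and 0.303%. The CREB site TGACGTCA was in 2 members, the interferon response element GAAANNGAA in 7 (10.3%, against 8.97% of tested genes) and the interferon-gamma site TTCNNNGAA in 6 (8.82%, against 8.23%). Split by their call in sedentary DTR+ against DTR- muscle, 39 windows belonged to members called higher, 3 to members called lower and 26 to members not called. In that order the ETS core was in 17, 1 and 7, the YY1 motif in 8, 1 and 2, and the NRF1 motif in 7, 0 and 9. Matches of different motifs were allowed to overlap. These counts are descriptions of letters in a window. Beyond their motifs, 33 of the 77 members (42.9%) had the start of a coding gene on the opposite strand within 1 kb, against 15.6% of coding genes tested. Such starts need not coincide, and some of these genes overlap the member.

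Within resting wild-type muscle, the members' levels spread widely although their proteins are built into the same particle. Levels are compared between genes as CPM per kilobase of annotated exon, after scaling of libraries by trimmed mean of M values (TMM). In sedentary quadriceps the median of the 77 genes was 17.5 CPM per kb, with 19.37 for Mrpl and 13.71 for Mrps genes. The highest were Mrps21 at 87.6 ± 2.71 (SD, n = 3), Mrpl14 at 81.9 ± 7.86, Mrpl12 at 79.7 ± 2.64 and Mrpl18 at 77.5 ± 3.49 CPM per kb. Mrpl12 forms part of the stalk of the large subunit and also binds the mitochondrial RNA polymerase. Mrps21 lay above Mrpl12 and Mrpl18 without overlap, while neighbours in this order did not differ beyond their SDs. The lowest was Mrpl23 at 1.92 ± 0.0239 CPM per kb, below Mrpl13 at 3.99 ± 0.22 and Mrpl48 at 4.01 ± 0.349. Mrpl23, a protein at the exit of the large subunit's tunnel, thus lay below its neighbours in that order by more than their SDs. Annotated exon length enters all these values and can far exceed the length of a transcript. It was 4883 against 692 bases for Mrpl23, 7936 against 955 for Mrpl13, 8152 against 865 for Mrpl48 and 3682 against 661 for Mrpl42. The order and the medians hold for this measure only, and levels per transcript length were not compared. In sedentary tibialis anterior Mrpl12 was highest, at 96.9 ± 7.12 CPM per kb, and Mrpl23 again lowest, at 2.17 ± 0.524.

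In wild-type mice the summed level of the 77 genes was steady. Over the 24 wild-type libraries it ran from 3793 to 4382 TMM-scaled CPM (median 4049), with 2619 to 3051 from Mrpl and 1169 to 1331 from Mrps genes. The ratio of the Mrpl to the Mrps sum ran from 2.085 to 2.304. For single genes the coefficient of variation over the 24 libraries was lowest for Mrpl30 (5.49%) and highest for Mrpl47 (20.5%).

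**Figure D1:**
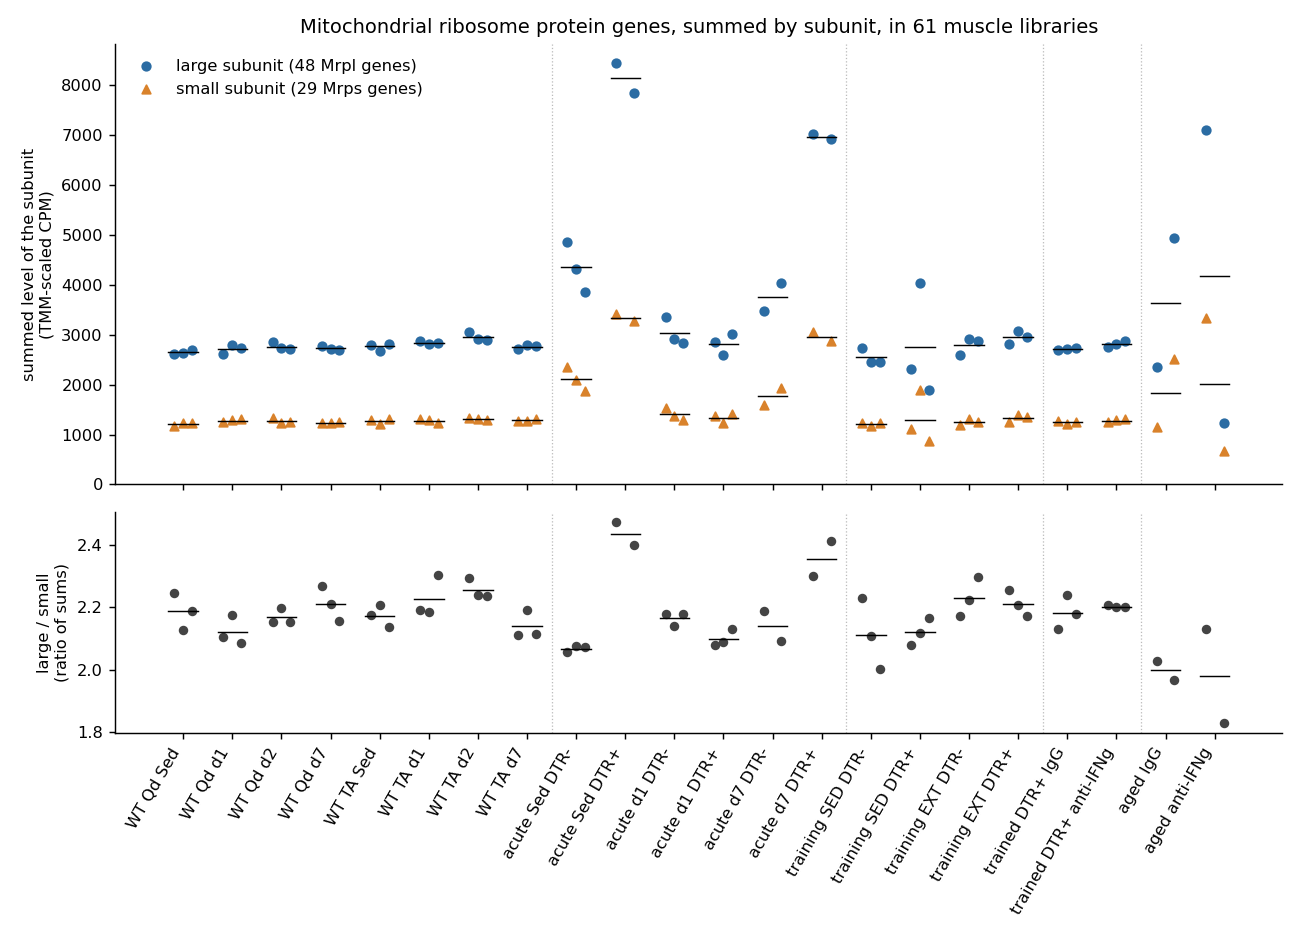
Upper panel: the summed level of the 48 Mrpl and the 29 Mrps genes (TMM-scaled CPM) in each of the 61 libraries, by group; lower panel: the ratio of the sums, large over small. Each point is 1 library. The sums of the 2 sedentary and the 2 day 7 DTR+ libraries of the acute experiment are high, their ratios run from 2.299 to 2.471 against 2.085 to 2.304 in wild-type libraries, and the aged libraries are spread widely.

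The first question was whether exercise changes these genes in muscle with intact regulatory T cells. No member passed the test at any time in either wild-type muscle. In quadriceps the edgeR quasi-likelihood test, with Benjamini-Hochberg adjustment over all genes, called 0 of 77 members at 1 day, 0 at 2 days and 0 at 7 days, against 0.582%, 0.299% and 0.214% of all genes. With an unadjusted p under 0.05 there were 3, 8 and 5 members, and DESeq2 called 0 at each time. In tibialis anterior edgeR called 0 members at each time, against 0.0552%, 0.063% and 0.0158% of all genes, with 3, 2 and 3 members at an unadjusted p under 0.05 and 0 by DESeq2. The members' median log2 difference from sedentary was 0.04, 0.06 and 0.07 in quadriceps and 0.03, 0.03 and -0.02 in tibialis anterior. In data simulated for the day 1 quadriceps comparison, 44 of 100 planted changes of log2 1 and 69 of 100 of log2 2 were called. The lack of calls therefore does not show that the members were unchanged. Mrpl10, a protein of the large subunit's stalk, was among the 2 members of smallest p at each time in quadriceps. Its level was 25.7, 32.0 and 30.8 CPM in the sedentary libraries, 39.2, 37.9 and 34.9 at day 1, 37.6, 43.8 and 43.0 at day 2, and 43.0, 35.7 and 35.4 at day 7. Every exercised library lay above every sedentary one, yet the log2 differences of 0.34, 0.50 and 0.38 did not pass (adjusted p at day 2 = 0.219, edgeR). Mrps23, of the small subunit, had 72.6, 70.8 and 66.9 CPM in the sedentary libraries and 76.8, 97.9 and 85.6 at day 1, without overlap, and its log2 difference of 0.31 did not pass either (adjusted p = 0.393).

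Quadriceps and tibialis anterior of sedentary wild-type mice were compared in the same way. edgeR called 0 members, against 1.3% of all genes, with 9 members at an unadjusted p under 0.05 and 0 by DESeq2. Mrpl12 had the smallest p: 123, 125 and 117 CPM in quadriceps and 159, 137 and 149 in tibialis anterior. The libraries did not overlap, but the log2 difference of -0.29 had an adjusted p of 0.182. Whether the response to exercise differed between the muscles was tested as an interaction, and edgeR called 0 members at 1, 2 and 7 days, against 0.0434%, 0.00724% and 0.0796% of all genes. At an unadjusted p under 0.05 there were 1, 3 and 3 members, and DESeq2 called 0.

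The genotypes of the acute experiment differed in sedentary mice. In DTR+ quadriceps 42 members were higher and 5 lower than in DTR- quadriceps, against 12.1% of all genes higher and 14.5% lower (edgeR, 26.6% in all). Of the 48 Mrpl genes 27 rose and 3 fell, with a median log2 fold change of 0.56, and of the 29 Mrps genes 15 rose and 2 fell, with a median of 0.51. The median of all genes tested was -0.06. The groups did not overlap for 56 members that were above and 8 that were below. The share of all genes without overlap is not given here, so these counts are not read as a result about the members. The members' share of all counts, which no scaling enters, was 0.5212%, 0.5682% and 0.5969% in the 3 DTR- libraries and 0.7731% and 0.8164% in the 2 DTR+ libraries. On library totals with no scaling factors, an alternative chosen after seeing the data that shifted the median of all genes to -0.36, the calls were 28 higher and 10 lower.

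Mrpl42, a protein of the large subunit, had the largest rise. Its level was 762, 610 and 515 CPM in the DTR- libraries and 2341 and 1974 in the DTR+ libraries. The DTR+ libraries lay far above the others, and the log2 fold change was 1.76 ± 0.16 (SE, 2 against 3 libraries, adjusted p = 2.83e-07). Mrpl33 had 162, 138 and 103 CPM in DTR- and 503 and 376 in DTR+ muscle, and rose by 1.69 ± 0.17 on the log2 scale (adjusted p = 1.26e-06). Mrps33 went from 29.1, 23.1 and 21.5 CPM to 74.6 and 70.9 (log2 1.54, adjusted p = 5.94e-05). For both genes the DTR+ libraries were the 2 highest. Mrps18c, one of 3 paralogous Mrps18 proteins, went from 54.2, 39.7 and 36.3 CPM to 127 and 117 (log2 1.47, adjusted p = 6.92e-06). Its paralog Mrps18a, a protein of the large subunit, rose less, by 0.52 (adjusted p = 0.0291), and this call was lost with no scaling factors. Mrps18b, the other paralog in the small subunit, had a log2 difference of 0.43 that did not pass (adjusted p = 0.107). Mrpl32, which is cleaved by a protease of the inner membrane before it is assembled, rose by 1.45. Mrpl27, which reaches towards the catalytic centre, rose by 1.42. Mrpl58, also known as ICT1, a peptidyl-tRNA hydrolase built into the ribosome, rose by 1.13 (adjusted p = 2.75e-05).

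Mrps5 and Mrpl38 led the members that fell. Mrps5, which lines the path of the messenger RNA in the small subunit, had 30.5, 37.3 and 43.9 CPM in the DTR- libraries and 16.9 and 15.4 in the DTR+ libraries. The DTR+ libraries were the lowest, and Mrps5 fell by 1.24 ± 0.24 on the log2 scale (adjusted p = 0.000804). Mrpl38 had 57.7, 65.0 and 59.5 CPM in DTR- and 32.3 and 31.8 in DTR+ muscle, and fell by 0.95 (adjusted p = 0.000815). Mrps27, a pentatricopeptide repeat protein, fell by 0.67, Mrpl4, which lines the exit tunnel, by 0.63, and Mrpl50 by 0.60. The level of Mrpl12 was 141, 154 and 136 CPM in DTR- and 157 and 162 in DTR+ muscle, a log2 difference of 0.12 (adjusted p = 0.654) that was -0.19 with no scaling factors. Mrps30 had a log2 difference of -0.28 that did not pass (adjusted p = 0.321), and with no scaling factors it was -0.59 and passed. Mrps36 rose by 0.51 (adjusted p = 0.0492), a call lost with no scaling factors.

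**Figure D2:**
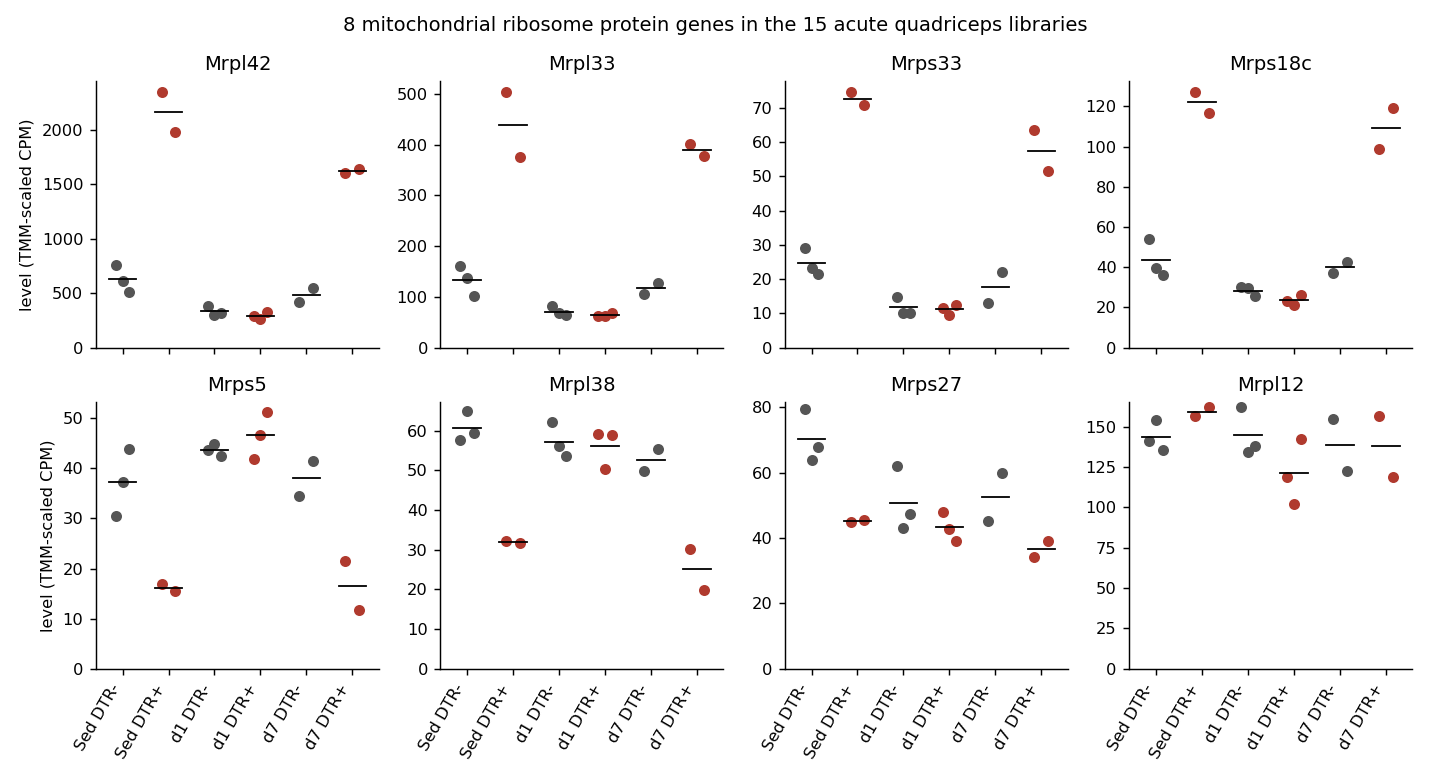
Levels of 8 members (TMM-scaled CPM, axes from 0) in the 15 quadriceps libraries of the acute experiment, 1 point per library, by genotype and time. Mrpl42 sits at 1974 and 2341 in sedentary DTR+ muscle and at 259 to 324 at day 1, while Mrps5 shows the opposite order, with 15.4 and 16.9 sedentary and 41.9 to 51.3 at day 1.

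At 7 days after exercise the genotypes differed again, in libraries that share no sample with the sedentary comparison. At day 7, 42 members were higher and 6 lower in DTR+ muscle (edgeR, against 11.3% of all genes higher and 14% lower, 25.3% in all). The median log2 fold change was 0.62 for the Mrpl and 0.59 for the Mrps genes, against -0.10 for all genes tested. With no scaling factors the calls were 28 higher and 10 lower, and the median of all genes was -0.39. Of these, 37 members were called higher in both comparisons, which is 88.1% of either list of 42. Mrps5, Mrpl38, Mrps27 and Mrpl4 were called lower in both, and 0 were called in opposite directions. Over the 77 genes the sedentary and day 7 sets of log2 fold changes correlated with r = 0.927 and rho = 0.91, as a description across genes, which are not independent replicates, with no test.

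Among single members, Mrpl42 had 420 and 548 CPM in the DTR- and 1601 and 1638 in the DTR+ libraries at day 7, a log2 fold change of 1.67 ± 0.18 (adjusted p = 2.68e-06). Mrpl33 had 107 and 128 CPM against 401 and 377 (log2 1.66, adjusted p = 7.49e-06). Mrps33 had 13.0 and 22.2 CPM against 63.6 and 51.5 (log2 1.63, adjusted p = 0.000155). In each of the 3 genes the DTR+ libraries were the 2 highest. Mrpl55 rose by 1.40, from 83.6 and 126 CPM to 276 and 303. Mrps18b rose by 0.83 at day 7 (adjusted p = 0.00691), a call lost with no scaling factors, whereas the difference in Mrps18a, 0.46, did not pass (adjusted p = 0.0825). Mrps5 fell by 1.26 (34.6 and 41.5 CPM in DTR-, 21.4 and 11.7 in DTR+). Mrpl38 fell by 1.14, Mrpl4 by 0.81 and Mrpl3, a protein near the catalytic centre, by 0.72. Mrpl9 fell by 0.67 (87.6 and 89.1 CPM in DTR-, 55.4 and 60.8 in DTR+). Whether the genotype difference itself changed between sedentary and day 7 was tested as an interaction, and edgeR called 0 members, against 0.0772% of all genes, with 2 at an unadjusted p under 0.05 and 0 by DESeq2.

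**Figure D3:**
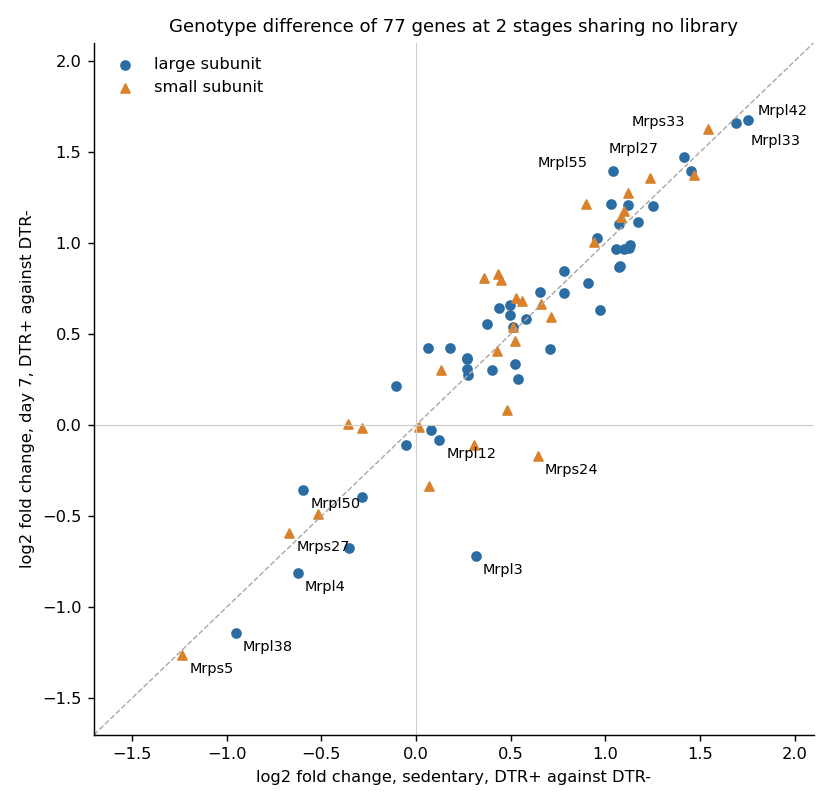
Log2 fold change of DTR+ against DTR- quadriceps for the 77 members in sedentary mice (x axis) and 7 days after exercise (y axis); circles are Mrpl and triangles Mrps genes. Most points lie in the upper right, with Mrpl42, Mrpl33 and Mrps33 farthest out, and Mrps5 and Mrpl38 lie in the lower left.

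At 1 day after exercise no gene passed the test between the genotypes. edgeR called 0 members, and 0% of all genes, with 1 member and 280 of 14245 genes at an unadjusted p under 0.05, and DESeq2 called 0 members. The summed level was 4894, 4292 and 4135 CPM in the DTR- libraries and 4227, 3829 and 4419 in the DTR+ libraries. The day 1 sums overlapped and were lower than every sedentary and day 7 sum of the acute experiment, of which the DTR- values ran from 5072 to 7222 and the DTR+ values from 9779 to 11850. Mrpl42 had 378, 304 and 319 CPM in DTR- and 290, 259 and 324 in DTR+ muscle at day 1. Against the 24 wild-type libraries, whose sums ran from 3793 to 4382, the day 1 sums thus lay in or near the wild-type range.

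The day 1 libraries were next compared with the sedentary libraries of their own genotype. These 2 comparisons and the genotype comparisons share libraries, so their values are given side by side only. In DTR- muscle 42 members were lower and 0 higher at day 1, against 8.24% of all genes lower and 8.16% higher (edgeR, 16.4% in all). This took in 24 of 48 Mrpl genes, with a median log2 fold change of -0.49, and 18 of 29 Mrps genes, with a median of -0.60, while the median of all genes was 0.09. Mrps33 fell by 1.06 (adjusted p = 0.00237), from 29.1, 23.1 and 21.5 CPM to 14.9, 10.1 and 10.2. Mrpl28 fell by 0.97 and Mrps14 by 0.96, and Mrpl12 differed by 0.02. With no scaling factors 22 members were lower and 2 higher, and the median of all genes was 0.34. Other measures moved between the same DTR- libraries. From sedentary to day 1 the 6 skeletal muscle markers went from a sum of 208500 to 235500 CPM to 141100 to 162700 (1 rose and 3 fell), the 5 fibro-adipogenic markers from 1662 to 2176 to 1157 to 1439 (2 fell), and the 4 endothelial markers from 94.3 to 130 to 138 to 152 (1 rose). None of these markers was at 0 in all libraries of a group, and their part in the members' change was not tested. Transcript length also differed between the members called and the rest, as given with the length results.

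In DTR+ muscle 61 members were lower and 3 higher at day 1, against 18.1% of all genes lower and 24.3% higher (edgeR, 42.4% in all). The medians were -1.31 for the Mrpl and -1.21 for the Mrps genes, against 0.28 for all genes tested. Mrpl42 fell by 2.85 ± 0.16 on the log2 scale (adjusted p = 2.54e-10), Mrpl33 by 2.73 (adjusted p = 7.72e-10) and Mrps33 by 2.65 (adjusted p = 2.69e-08). The members that rose were Mrps5 by 1.57 (adjusted p = 3.14e-05), Mrpl38 by 0.85 (adjusted p = 0.00109) and Mrps6, a protein of the small subunit's platform, by 0.59 (adjusted p = 0.0341). With no scaling factors 47 were lower and 9 higher, with a median of all genes of 0.81. The interaction, which tests whether the change from sedentary to day 1 differed between genotypes, was negative for 32 members and positive for 2, against 6.54% and 8.8% of all genes (edgeR, 15.3% in all). Among the markers in DTR+ muscle, skeletal muscle went from a sum of 231900 to 247200 CPM in sedentary mice to 147400 to 170700 at day 1 (2 rose and 3 fell). Fibro-adipogenic markers went from 2135 to 2494 to 1011 to 1186 (3 of 5 fell). Endothelial markers went from 112 to 120 to 144 to 164 (1 of 4 rose), and nerve and Schwann cell markers from 16.9 to 23.7 to 40.5 to 58.0 (2 of 3 rose). None of them was at 0 in all libraries of a group. The part of these markers was not tested. The 2 members with a positive interaction were Mrps5 (1.33, adjusted p = 0.00577) and Mrpl38 (0.92, adjusted p = 0.0133). With no scaling factors the interaction was negative for 25 and positive for 6.

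At day 7 against sedentary, edgeR called 0 members in DTR- muscle, against 0.00702% of all genes, with 5 at an unadjusted p under 0.05 and 0 by DESeq2. In DTR+ muscle 2 members fell and 0 rose, against 0.379% of all genes lower and 0.632% higher (1.01% in all). Mrps24, a protein at the entry of the messenger RNA channel, had 217 and 197 CPM in sedentary and 120 and 88.5 at day 7, and fell by 1.00 (adjusted p = 0.0131). Mrpl3 went from 96.8 and 57.9 CPM to 39.7 and 32.8, and fell by 1.10 (adjusted p = 0.0334). The libraries did not overlap for either gene. Without sedentary DTR+ library 2, or without day 7 DTR+ library 3, edgeR called 0 members here.

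Training for 2 weeks gave no call in either genotype when all libraries were used. edgeR called 0 members for trained against sedentary DTR- muscle (0.103% of all genes), with 0 at an unadjusted p under 0.05 and 0 by DESeq2. For DTR+ muscle it called 0 (2.21% of all genes), with 2 at an unadjusted p under 0.05 and 0 by DESeq2. Between genotypes edgeR called 0 in sedentary (0.0477% of all genes) and 0 in trained mice (0.89%), and the interaction called 0 (0.27%), with 0 at an unadjusted p under 0.05 and 0 by DESeq2 in all 3. In data simulated for trained DTR+ against DTR- muscle, 22 of 100 planted changes of log2 1 and 72 of 100 of log2 2 were called. A lack of calls thus does not show unchanged levels. A single library decided the DTR+ result. The summed level of the sedentary DTR+ libraries was 3419, 5929 and 2779 CPM, and library 2, the high one, had 17342 genes detected and 8.006% of its counts from mitochondrially encoded genes, against 21186 and 22079 genes and 5.148% and 5.208% in the others. The trained DTR+ libraries had 4050, 4476 and 4314. Without library 2, 11 members were called higher after training and 0 lower, with a median log2 fold change of 0.40. The share and median of all genes without library 2 are not given here, so the 11 calls are not read as a response of these genes. Mrpl10 had the smallest p with all libraries: 24.6, 29.7 and 17.5 CPM in sedentary and 35.3, 39.9 and 39.7 in trained DTR+ muscle, without overlap (log2 0.63, adjusted p = 0.155).

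Blocking IFN-gamma was the last question. In trained DTR+ mice edgeR called 0 members for anti-IFN-gamma against IgG (1.35% of all genes), with 1 at an unadjusted p under 0.05 and 0 by DESeq2. That member was Mrpl54, with 45.8, 44.4 and 46.8 CPM under IgG and 55.2, 59.1 and 49.6 under the antibody, a log2 difference of 0.25 with no overlap. The summed levels were close, at 3959, 3930 and 3985 CPM under IgG and 4017, 4107 and 4175 under the antibody. The antibody libraries were all above the IgG libraries. In aged mice edgeR called 0 members and 0% of all genes, with 0 members at an unadjusted p under 0.05 and 0 by DESeq2. In data simulated for this design of 2 against 2 no planted change was called, so the lack of calls carries no information on whether the members differed. The sums were 3506 and 7446 CPM under IgG and 10440 and 1906 under anti-IFN-gamma, and the share of counts from mitochondrially encoded genes followed the same order, at 4.811%, 8.166%, 13.98% and 3.254%.

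The ratio of the large to the small subunit was compared next. The ratio of the Mrpl to the Mrps sum was 2.471 and 2.398 in sedentary DTR+ libraries and 2.057, 2.074 and 2.071 in sedentary DTR- libraries. At day 7 it was 2.299 and 2.411 in DTR+ and 2.187 and 2.09 in DTR- libraries, and at day 1 it ran from 2.079 to 2.177. With Mrps18a and Mrps30 counted to the large subunit and Mrps36 left out, the sedentary ratios were 2.801 and 2.709 in DTR+ and 2.42 to 2.453 in DTR- libraries. In both forms, at both times, the DTR+ libraries were above the DTR- libraries, but in the form by symbol this rested on Mrpl42, which held 2341 of the 11850 CPM in sedentary DTR+ library 2. With Mrpl42 left out, an alternative chosen after seeing the data, the ratio of the Mrpl to the Mrps sum was 1.785 and 1.795 in sedentary DTR+ and 1.734, 1.781 and 1.795 in sedentary DTR- libraries, which overlapped. At day 7 it was 1.775 and 1.839 in DTR+ and 1.923 and 1.807 in DTR- libraries, which overlapped too. By gene count the subunits did not part, as 27 of 48 Mrpl and 15 of 29 Mrps genes were called higher in sedentary mice and the same numbers at day 7.

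Other genes of mitochondrial gene expression were taken from lists chosen with earlier results of these data known. As background, 1692 of the 14050 genes with an annotated transcript length were called higher in sedentary DTR+ muscle and 2058 lower. No list was tested against these shares. In sedentary DTR+ against DTR- muscle, 2 of 5 proteins of the mitochondrial ribosome that lack an Mrp symbol rose and 0 fell. They were Chchd1 (log2 1.33, adjusted p = 2.58e-05) and Aurkaip1 (0.53, adjusted p = 0.01), both of the small subunit. Of 29 assembly and rRNA modification factors 4 rose and 2 fell, with a median of -0.09 and a share of risers near that of all genes. Slirp, an RNA-binding partner of Lrpprc, rose by 1.30 and Malsu1, an assembly factor of the large subunit, by 1.16, while the helicase Dhx30 fell by 1.12. Of 12 translation factors 2 rose and 4 fell. Tufm, the elongation factor that brings tRNA to the ribosome, fell by 1.34 (adjusted p = 0.000156). Of 17 mitochondrial tRNA synthetases 0 rose and 5 fell, with a median of -0.51, among them Sars2, the serine enzyme, which fell by 1.52 (adjusted p = 0.000191).

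The mitochondrially encoded mRNAs, which this ribosome translates, rose in 10 of 13 cases and fell in 0, with a median of 1.41, and mt-Cytb rose by 2.12 (adjusted p = 1.34e-07). Of 10 genes of mitochondrial DNA transcription 3 rose and 1 fell, with the elongation factor Tefm at 1.31. Of 9 upstream regulators 1 rose and 2 fell, too few to set apart from the shares of all genes. Yy1 rose by 1.19, and Esrra and Nrf1, which drive nuclear genes of mitochondria, fell by 1.00 and 1.08. The cytosolic ribosome proteins, the counterpart outside mitochondria, rose in 35 of 83 cases and fell in 0, with a median of 0.47. At day 7 the corresponding counts were 17 and 1 for the cytosolic ribosome (median 0.15), 10 and 0 for the mitochondrially encoded mRNAs, 2 and 4 for the tRNA synthetases, and 1 and 3 for the regulators, with Esrra lower by 1.45 and Ppargc1a by 1.38. At day 1 in DTR- muscle 15 cytosolic ribosome genes rose and 6 fell (median 0.05), and 8 of the 13 mitochondrially encoded mRNAs fell, with 0 higher. At day 1 in DTR+ muscle 4 and 31 cytosolic ribosome genes rose and fell, and 1 and 10 mitochondrially encoded mRNAs. Of the 14050 genes with an annotated length, 1588 were higher and 1981 lower between genotypes at day 7. From sedentary to day 1 the numbers were 1153 and 1145 in DTR- and 3424 and 2534 in DTR+ muscle.

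The neighbours with an opposite-strand start within 1 kb of a member's start were followed as well. Of 31 partners outside the family 26 were tested, of which 3 rose and 5 fell in sedentary DTR+ muscle, shares near the 12.1% and 14.5% of all genes, with a median log2 fold change of -0.29. At day 7, 4 rose and 7 fell, with a median of 0.01. Psma2, a proteasome subunit that faces Mrpl32, rose by 1.18 (adjusted p = 8.55e-06) beside 1.45 for Mrpl32. Sars2, which faces Mrps12, fell by 1.52, while Mrps12 had a log2 difference of 0.45. Mrpl46 and Mrps11 face each other and share 173 exon bases, so their reads cannot be fully told apart. Both rose in sedentary DTR+ muscle, by 0.58 and 0.90.

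Gene length, library complexity and markers of other cells moved along with the acute genotype difference, and gene length with the day 1 differences too. The members called higher in sedentary mice had a median transcript length of 927.5 bases, those called lower 1411 and the rest 1421. Over all genes the medians were 1318 for those called higher and 2340 for those called lower. From sedentary to day 1 in DTR- muscle, members called lower had a median of 962.5 bases and the rest 1411. All genes there had 1250 if called lower and 3067 if called higher. In DTR+ muscle the members called lower had 970, those called higher 1411 and the rest 1634. All genes there had 1310 if called lower and 2602 if called higher. After removal of each library's dependence on transcript length and GC content, 43 members were higher and 3 lower in sedentary mice. Of these calls 40 were shared with the fit without removal, and at day 7 the calls were 40 higher and 3 lower. The share of all genes called after removal is not given here, so these counts have no background beside them. In data simulated to test this removal, the sedentary comparison without it gave 1580 false calls among 13595 genes, against 3 with it. At day 7 the false calls were 1191 among 13540 genes without removal and 0 with it. The removal also found fewer of the planted changes. For those of log2 1 the number found went from 38 to 19 in the sedentary and from 31 to 10 in the day 7 comparison. For those of log2 2 it went from 75 to 64 and from 68 to 57. The calls given above come from the fit without removal. Of 3 nerve and Schwann cell markers 0 rose and 1 fell in sedentary DTR+ muscle, and their summed level was 16.9 to 23.7 CPM against 46.6 to 65.4. The 7 macrophage markers summed to 289 to 338 CPM against 223 to 318 in sedentary mice, where 1 rose and 2 fell, and to 386 to 695 against 223 to 247 at day 7, where 4 rose and 1 fell. The 6 T and NK cell markers summed to 6.81 to 13.3 CPM in sedentary DTR+ libraries, against 5.55 to 6.86 in DTR- libraries. Cd3d, Lck, Cd8a and Nkg7 were at 0 in every sedentary DTR+ library, so that sum rests on the rest of the list. At day 7 the 6 markers summed to 25.8 to 69.6 in DTR+ against 4.22 to 6.60 in DTR- libraries, and 4 of the 5 tested rose. Cd3d, Cd8a and Trbc2 were at 0 in every DTR- library of day 7. The 6 skeletal muscle markers summed to 231900 to 247200 CPM in sedentary DTR+ and 208500 to 235500 in DTR- libraries, which overlapped. At day 7 they summed to 222500 to 235700 in DTR+ and 185600 to 199000 in DTR- libraries, without overlap. The part of length, complexity and these markers in the members' differences was not tested further.

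**Figure D4:**
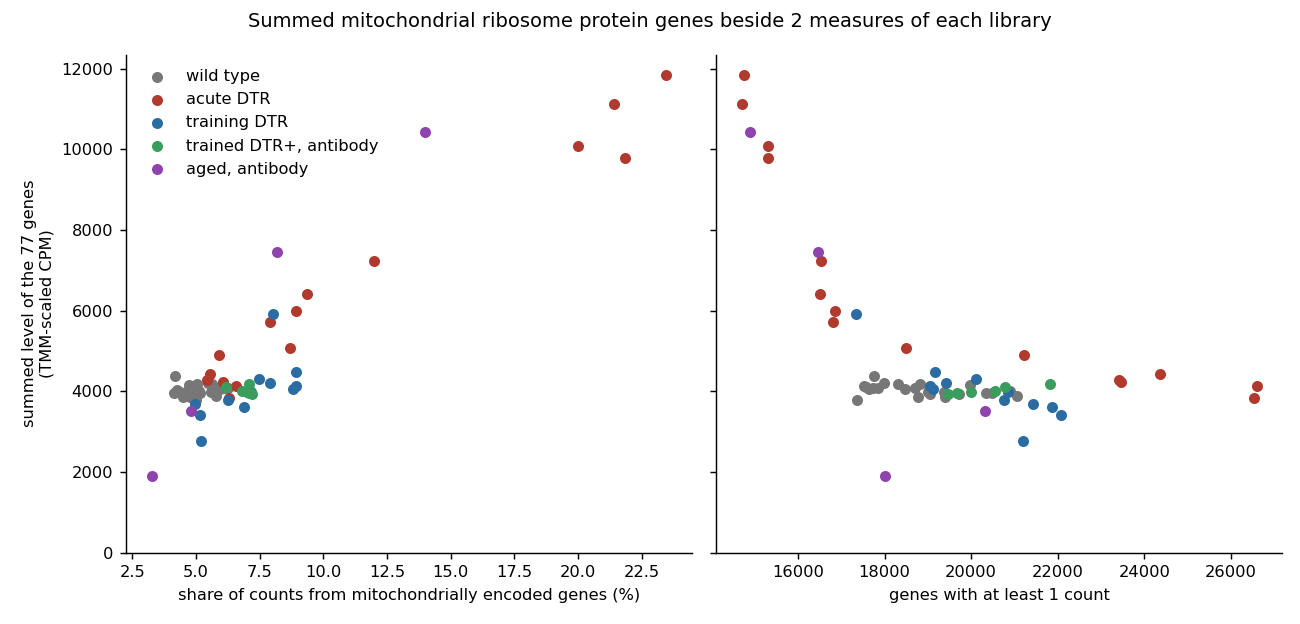
Summed level of the 77 members (TMM-scaled CPM) in each library against the share of counts from mitochondrially encoded genes (left, %) and the number of genes with at least 1 count (right), coloured by experiment. The acute DTR+ libraries of sedentary mice and day 7 lie at 9779 to 11850 with over 20% mitochondrially encoded counts, and an aged anti-IFN-gamma library lies near them at 10440 and 13.98%.

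Some values carry further limits of counting. An exon is shared with another coding gene for 22 members, and 18 have a pseudogene of at least 95% identity over at least 200 bases, Mrpl42, Mrpl27, Mrpl32, Mrps33 and Mrps5 among them and Mrpl33, Mrpl38 and Mrps18c not. How such reads were assigned is not given in the sources used here, so values of those genes are uncertain to that extent.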

How the data were processed

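RNA-seq was run on 61 libraries of whole mouse muscle in 22 groups. Per the labels' protocols, polyadenylated RNA was sequenced from 2 ng of total RNA per sample with an ultra-low-input protocol. The authors deposited a table of raw counts per gene for 55011 gene symbols. Per the submitters' processing notes the tools were STAR 2.7.3a and featureCounts with the mm10 genome; which annotation, strand setting and multi-mapping rule they used is not given in the sources used here. Library totals ran from 3359683 to 14445336 counts, and intervals and floors cover counting error only.

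Differences were tested with edgeR 4.0.16 (R 4.3.3): genes passed filterByExpr (minimum count 10, minimum total 15), libraries were scaled by TMM factors, quasi-likelihood tests were run on the whole table of each experiment, and p-values were adjusted over all genes tested (threshold 0.05). All groups of an experiment shared 1 fit. Levels are TMM-scaled CPM over all 61 libraries. Alternatives were DESeq2 1.42.0, its size factors in edgeR, no count filter, counts without mitochondrially encoded genes, only the groups compared, removal of a spline trend (4 degrees of freedom, prior count 2) on transcript length and GC content, a replicate block and leaving out each library. Library totals with no scaling factors, a crossed pairing of the aged libraries and the subunit ratio without Mrpl42 were added after seeing the data. The scripts were tested on simulated data, with 100 planted changes of log2 1 per comparison. Of these, 44 were called for quadriceps at day 1 and 22 for trained DTR+ against DTR- muscle. For the acute genotype comparison 20 were called in sedentary mice and 21 at day 7. For the antibody 69 were called in trained and 0 in aged mice. In the data simulated for the trend on length and GC content, the fit without its removal made many false calls, as given with the length results. The main calls come from that fit.

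In wild-type mice quadriceps and tibialis anterior carry the same ID numbers in the labels, read as 1 animal each. Deviations of same-numbered libraries from their group means correlated at -0.033 to 0.053. The block on that number called 0 members, as did the fit without it. Gene positions and lengths are from GENCODE vM21 (GRCm38), whose annotation held 53009 of the table's symbols; pseudogene copies were found with blastn 2.17.0; promoter windows are from RefSeq (GRCm38.p6), with 68 of 77 members matched.

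Members and gene lists were chosen with earlier results of these data known. Named members are, per comparison, the called members with the largest rises (up to 6) and falls (up to 6) that averaged 5 CPM or more in a group and did not overlap between groups; where none was called, the 2 of smallest p; for interactions, the 6 called of smallest p; for their role Mrpl12, Mrps18a, Mrps18b, Mrps18c, Mrps30, Mrps36 and Mrpl58; up to 3 called genes of each list; and the highest and lowest per length. The neighbouring genes and Mrps12, Mrpl46 and Mrps11 were named after their values were seen.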

Additional observations from a re-analysis of the deposited data

Results flagged for a closer look

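The difference between DTR+ and DTR- quadriceps in the acute experiment was not the same at day 1 as in sedentary mice. The interaction term of the edgeR fit, with p-values adjusted over all genes, called 34 of the 77 mitochondrial ribosome genes. Of the 6 with the smallest p, Mrpl42 had an interaction of -1.95 on the log2 scale (adjusted p = 8.88e-06), Mrpl33 of -1.83 (adjusted p = 4.18e-05), Mrps18c of -1.74 (adjusted p = 9.38e-05), Mrpl32 of -1.66 (adjusted p = 9.76e-05), Mrpl30 of -1.14 (adjusted p = 0.000219) and Mrpl13 of -1.44 (adjusted p = 0.000259). All 6 were called higher in DTR+ muscle in sedentary mice, and none of the 6 passed at day 1. Mrpl30 had 231, 206 and 188 CPM in sedentary DTR- and 456 and 438 in sedentary DTR+ muscle, and 156, 158 and 152 against 148, 137 and 162 at day 1. The DTR+ libraries were the highest in sedentary mice and overlapped the DTR- libraries at day 1.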

How the results depend on the processing

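Among all alternatives no count of called members reversed its direction. The shares of all genes called are not given for the alternatives, with no scaling factors among them, nor for the fits with a library left out. In sedentary mice the 47 calls between genotypes ran from 38 to 52 over the alternatives and from 32 to 50 with each library left out. The 48 calls at day 7 ran from 33 to 52 and from 33 to 41, and the 64 calls of DTR+ day 1 against sedentary from 56 to 68 and from 61 to 64. The interaction with day 1 gave 34 calls, with 29 to 44 and 29 to 38. For DTR- day 1 against sedentary the 42 calls became 24 on library totals with no scaling factors, and ran from 28 to 48 with each library left out, the 28 coming without sedentary DTR- library 1. For DTR+ day 7 against sedentary the 2 calls became 1 with no scaling factors, 1 with the replicate block and 0 with only the compared groups in the fit, and 0 to 2 with each library left out. Trained against sedentary DTR+ muscle gave 0 calls, and 0 to 11 with each library left out. The cause of these changes was not tested. Of 3804 values of named genes under alternatives, 3708 kept their direction and side of the threshold, 75 lost the call and 21 gained one.

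In the Foxp3DTR experiments same-numbered libraries share only a number, with correlations of -0.117 to 0.099. The replicate block gave 47 calls between genotypes in sedentary mice, 43 at day 7, 41 and 64 for day 1 against sedentary in DTR- and DTR+ muscle, and 33 for the interaction with day 1. In the aged libraries the correlation was -0.652, and a crossed pairing called 0. The antibody, aged and training-interaction fits hold only the compared groups, so that alternative was not run for them.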
